A study of Mus musculus with 36 samples.

Results

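The 6 genes *Mest*, *Sfrp5*, *Npr3*, *Bmp3*, *Nnat* and *Cav1* are known to track the expansion of fat depots in mice, and their transcripts were followed by name in RNA-seq of epididymal white adipose tissue (eWAT). Each was taken as the entry of the normalized count table whose Ensembl ID maps to its symbol, keeping the entry with the highest mean if there were several. They were 6 of 24750 genes in the table, and all 6 were among the 17852 genes tested, those with at least 1 normalized CPM, a read count scaled to library size by the authors, in at least 3 libraries. The tissue came from 36 male mice in 12 groups of 3, described by genotype, diet and oral ligature. Wild-type (WT) C57BL/6 mice were compared with CCL19-KI mice, a homozygous line made with CRISPR/Cas9 in which murine *Ccl19* was placed at the adipocyte gene *Adipoq*. That line was bred apart from the WT mice, so that line and allele cannot be told apart. All mice were on a normal diet (ND) first. From 6 weeks of age they were fed ND, a 40% high-fat diet (40% HFD) or a 60% high-fat diet (60% HFD). In 18 mice, named as ligatured by the labels, silk thread was tied around the second molars of the upper jaw at 14 weeks of age to cause periodontitis. The eWAT was collected 2 weeks later, after 10 weeks of feeding, and its lymph nodes were removed. The design text and the methods describe tissue from ligatured animals, while the labels give no ligature for the other 18 mice, and the labels were followed.

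White adipose tissue expands as adipocytes take up lipid and as new adipocytes form, and genetically alike mice on 1 diet can differ widely in how much fat they gain. Some transcripts of the adipocyte are known to follow that gain more closely than they follow the diet itself, and *Mest*, an imprinted gene expressed from the paternal allele that encodes a protein of the alpha/beta hydrolase fold, is the usual example. The other members act in WNT, natriuretic peptide and BMP signalling, in imprinted gene expression, and in caveolae, the flask-shaped pits of the adipocyte membrane.

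The libraries held 11962228 to 21581595 reads over the table, with a median of 15573273, so that 1 read stood for 0.0472 to 0.0834 CPM and 3 reads, taken as the floor, for 0.142 to 0.250 CPM. Such floors, and the intervals given with fold changes, cover counting error and the spread between these mice only. The lowest member value in any library was 3.45 CPM, for *Sfrp5*, above every floor. The label of eWAT was checked against 12 adipocyte markers, all of which were detected. *Fabp4*, the adipocyte fatty acid binding protein, was the most abundant of them at 2009 to 10912 CPM, and the 12 summed to 6503 CPM in WT 40% HFD no ligature replicate 1, the lowest library, and to 28033 CPM in the highest. In bulk tissue, fewer cells of a type and less RNA per cell cannot be told apart.

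A pair of libraries went against their genotype labels. *Ccl19*, the chemokine gene carried by the knock-in allele, was 19.2 CPM in the library labelled WT ND no ligature, replicate 2, where the other WT libraries ranged from 0.507 to 4.51 CPM. *Gm2564*, another transcript that separated the genotypes, was 41.9 CPM there and 0 to 0.160 CPM in the other WT libraries. In the library labelled CCL19-KI 60% HFD no ligature, replicate 3, *Ccl19* was 0.687 CPM and *Gm2564* 0, while the other CCL19-KI libraries held 5.57 to 34.6 and 11.6 to 108 CPM. These transcripts bear on genotype alone, and whether the diet and ligature labels of the 2 libraries hold was not tested. Both were kept under their labels, and members called in each kind of comparison are also counted without them. The markers of epididymal epithelium, the tissue beside this depot, were uneven. Their sum ran from 0.141 to 12724 CPM, the highest in CCL19-KI 60% HFD no ligature replicate 3, one of the pair against their labels, with a median of 25.9 CPM on ND, 1.07 on 40% HFD and 1.25 on 60% HFD. Among them *Crisp1*, which encodes a secreted protein that coats sperm, was the most abundant at up to 9541 CPM. The libraries with the highest mean log2 value of these markers were WT ND no ligature replicate 2 (8.63) and CCL19-KI 60% HFD no ligature replicate 2 (6.91).

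On GRCm38 (GENCODE M21), *Mest* (ENSMUSG00000051855) lies at chr6:30723547-30748465 on the + strand, *Sfrp5* (ENSMUSG00000018822) at chr19:42197971-42202252 on the - strand, and *Npr3* (ENSMUSG00000022206) at chr15:11839896-11907287 on the - strand. *Bmp3* (ENSMUSG00000029335) lies at chr5:98854415-98884396, *Nnat* (ENSMUSG00000067786) at chr2:157560078-157562522 and *Cav1* (ENSMUSG00000007655) at chr6:17306335-17341452, each on the + strand. *Mest* shares 912 exonic bases with the oppositely oriented *Copg2* (85.1 CPM), *Npr3* shares 321 with *Gm5144* (4.74 CPM), and *Nnat* lies inside *Blcap* (42.0 CPM) with no shared exonic base. Per kilobase of exon, the mean level over the 36 libraries was 474 CPM for *Cav1*, 185 for *Nnat*, 153 for *Mest*, 106 for *Npr3*, 86.3 for *Sfrp5* and 12.2 for *Bmp3*. The RefSeq promoter windows on GRCm38.p6, 250 bases before to 50 after a start, matched 5 of the 6 members with 8 entries; *Bmp3* was the other. Shown 5′ to 3′ are the windows of the 3 members that were called together on the high-fat diets: *Mest* at chr6:30737800-30738099 (+), *Sfrp5* at chr19:42202203-42202502 (-) and *Npr3* at chr15:11907322-11907621 (-). Capitals mark matches on either strand to GGGCGG (GC box) in *Mest* and *Sfrp5*, and to CCAAT, read as ATTGG on the strand shown, in *Sfrp5* and *Npr3*.
Mest: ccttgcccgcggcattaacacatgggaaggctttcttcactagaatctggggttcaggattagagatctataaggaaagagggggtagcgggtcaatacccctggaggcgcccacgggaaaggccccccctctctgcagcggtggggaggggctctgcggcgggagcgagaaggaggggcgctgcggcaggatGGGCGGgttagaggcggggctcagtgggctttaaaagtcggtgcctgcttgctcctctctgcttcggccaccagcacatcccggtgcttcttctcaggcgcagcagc
Sfrp5: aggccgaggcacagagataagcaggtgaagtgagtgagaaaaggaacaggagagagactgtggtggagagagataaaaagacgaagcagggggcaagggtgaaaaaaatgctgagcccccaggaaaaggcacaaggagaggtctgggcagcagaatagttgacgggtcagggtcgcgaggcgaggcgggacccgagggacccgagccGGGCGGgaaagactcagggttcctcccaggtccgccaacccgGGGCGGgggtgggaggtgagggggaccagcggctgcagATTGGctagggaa
Npr3: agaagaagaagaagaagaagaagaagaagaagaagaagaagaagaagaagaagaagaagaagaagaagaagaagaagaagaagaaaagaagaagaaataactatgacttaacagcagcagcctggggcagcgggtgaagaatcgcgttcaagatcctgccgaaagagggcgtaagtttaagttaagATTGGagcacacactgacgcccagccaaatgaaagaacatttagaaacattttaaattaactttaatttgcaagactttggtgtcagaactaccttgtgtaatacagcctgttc
Of all 32851 promoter windows, 35.7% held GGGCGG and 37.4% held CCAAT. None of these 3 windows held TATAAA (13.6% of all windows), the nuclear receptor half-site AGGTCA (16.3%), a direct repeat of that half-site with 1 base between (DR1, 0.0396%, which contains the half-site), CACGTG (7.15%) or the C/EBP letters TTGCNNAA (10.8%). *Mest* had 3 entries, of which the second is shown. The third overlaps it from 3 bases further on, and the first, at chr6:30733256-30733555 (+), held 1 match to GGGCGG and 1 to TTGCNNAA. A match describes letters only.

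The comparison of diets asks how the eWAT of mice differs after feeding with more fat. *Mest* rose on both high-fat diets. On ND, the normalized CPM of *Mest* in the 3 mice of each group, followed by the mean and SD, was 1315, 389 and 613 in WT mice without ligature (mean 772 ± 483), 28.1, 51.3 and 38.8 in WT mice with ligature (mean 39.4 ± 11.6), 786, 64.2 and 232 in CCL19-KI mice without ligature (mean 361 ± 378), and 73.7, 129 and 306 in CCL19-KI mice with ligature (mean 169 ± 121). On 40% HFD it was 112, 611 and 766 in WT mice without ligature (mean 496 ± 342), 1081, 301 and 318 in WT mice with ligature (mean 567 ± 445), 652, 552 and 614 in CCL19-KI mice without ligature (mean 606 ± 50.7), and 926, 606 and 594 in CCL19-KI mice with ligature (mean 709 ± 188). On 60% HFD it was 1254, 792 and 956 in WT mice without ligature (mean 1001 ± 234), 683, 648 and 534 in WT mice with ligature (mean 622 ± 77.8), 386, 802 and 453 in CCL19-KI mice without ligature (mean 547 ± 224), and 1403, 798 and 1829 in CCL19-KI mice with ligature (mean 1343 ± 518). WT mice with ligature on ND held the 3 lowest values of the 36, and CCL19-KI mice with ligature on 60% HFD the highest. Within ND the mice spread over 28.1 to 1315 CPM, which overlapped the ranges on 40% HFD (112 to 1081) and 60% HFD (386 to 1829). Mean levels were 335 ± 393, 594 ± 266 and 878 ± 424 CPM (SD, n = 12 mice each). Averaged over genotype and ligature in the limma fit, *Mest* was higher on 40% HFD than on ND (log2 fold change 1.60, SE 0.35, 95% interval 0.89 to 2.31, 3.03-fold, adjusted p = 0.00793) and higher on 60% HFD than on ND (log2 fold change 2.21, SE 0.35, 95% interval 1.5 to 2.92, 4.63-fold, adjusted p = 2.44e-04). Both comparisons share the ND mice. Leaving out any 1 library kept both calls, with log2 fold changes of 1.37 to 1.82 and 1.98 to 2.43. The values were, without the 2 libraries against their labels, 1.5 (adjusted p = 0.0166) and 2.13 (adjusted p = 0.00120). Over all alternatives but the single leave-outs, adjusted p ran from 2.28e-05 to 0.991 on 40% HFD and from 1.24e-07 to 0.969 on 60% HFD, with the highest in a fit of the 18 mice without ligature. In that fit both calls of *Mest* were lost, at log2 fold changes of 0.28 and 0.86. With the endothelial marker mean as a covariate, *Mest* on 40% HFD was 1.35 (adjusted p = 0.0531), past the threshold of 0.05.

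*Sfrp5*, a secreted antagonist that binds WNT ligands, rose more than any other member on both diets in the averaged comparisons. Its normalized CPM on ND was 199, 125 and 96.3 in WT mice without ligature (mean 140.0 ± 53.0), 3.45, 17.2 and 8.20 in WT mice with ligature (mean 9.61 ± 6.97), 211, 7.18 and 30.0 in CCL19-KI mice without ligature (mean 82.7 ± 112), and 17.5, 22.5 and 32.0 in CCL19-KI mice with ligature (mean 24.0 ± 7.34). On 40% HFD it was 34.2, 45.6 and 133 in WT mice without ligature (mean 70.9 ± 54.0), 232, 142 and 260.1 in WT mice with ligature (mean 212 ± 61.5), 244, 179 and 191 in CCL19-KI mice without ligature (mean 205 ± 34.4), and 424, 252 and 185 in CCL19-KI mice with ligature (mean 287 ± 123). At 60% HFD the values were 283, 241 and 254 in WT mice without ligature (mean 259 ± 21.7), 277, 232 and 164 in WT mice with ligature (mean 224 ± 57.2), 119.5, 169 and 155 in CCL19-KI mice without ligature (mean 148 ± 25.6), and 414, 225 and 276 in CCL19-KI mice with ligature (mean 305 ± 97.9). Among ligatured mice the diets did not overlap: 6 ND mice lay at 3.45 to 32.0 CPM and 12 mice on the high-fat diets at 142 to 424 CPM. The share of all genes apart in this way was not counted. In a fit of the ligatured mice, 15.9% of genes were called on 40% HFD and 35.6% on 60% HFD. *Mest* did overlap among ligatured mice, reaching 306 CPM on ND and starting at 301 CPM on the high-fat diets. Without ligature, *Sfrp5* reached 211 CPM in ND mice and went as low as 34.2 CPM in WT mice on 40% HFD, so that the ranges overlapped. *Sfrp5* was higher on 40% HFD than on ND (log2 fold change 2.32, SE 0.34, 95% interval 1.62 to 3.01, 4.98-fold, adjusted p = 7.86e-04) and higher on 60% HFD than on ND (log2 fold change 2.78, SE 0.34, 95% interval 2.08 to 3.48, 6.87-fold, adjusted p = 2.35e-05). No single leave-out ended either call. Both calls of *Sfrp5* were lost in the fit of mice without ligature, at 0.64 (adjusted p = 0.957) and 1.46 (adjusted p = 0.969). With the pair against their labels left out the values were 2.30 (adjusted p = 0.00205) and 2.76 (adjusted p = 1.73e-04), in a range of adjusted p over those alternatives of 6.16e-08 to 0.957 and 2.42e-11 to 0.969.

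*Npr3*, the clearance receptor that removes natriuretic peptides from adipocytes, rose on 60% HFD, and its call on 40% HFD was lost in 6 of 36 leave-outs and 7 of 21 other alternatives. Its normalized CPM on ND was 1768, 1009 and 1577 in WT mice without ligature (mean 1451 ± 395), 143, 232 and 756 in WT mice with ligature (mean 377 ± 331), 1255, 127 and 231 in CCL19-KI mice without ligature (mean 538 ± 623), and 203, 395 and 579 in CCL19-KI mice with ligature (mean 392 ± 188). On 40% HFD it was 284, 798 and 1060.0 in WT mice without ligature (mean 714 ± 395), 1132, 881 and 1483 in WT mice with ligature (mean 1165 ± 303), 1401, 1107 and 966 in CCL19-KI mice without ligature (mean 1158 ± 222), and 1693, 1104 and 962 in CCL19-KI mice with ligature (mean 1253 ± 388). With 60% HFD they were 1848, 1238 and 1150.2 in WT mice without ligature (mean 1412 ± 380.1), 1416, 1034 and 1031 in WT mice with ligature (mean 1161 ± 222), 605, 817 and 1012 in CCL19-KI mice without ligature (mean 812 ± 204), and 1799, 957 and 1901 in CCL19-KI mice with ligature (mean 1552 ± 518). Ligatured mice were again apart by diet, at 143 to 756 CPM on ND (n = 6 mice) and 881 to 1901 CPM on the high-fat diets (n = 12 mice). How many of all genes were apart by this much was not counted. WT mice on ND without ligature, at 1009 to 1768 CPM, sat inside the range of the high-fat mice. *Npr3* was higher on 60% HFD than on ND (log2 fold change 1.31, SE 0.30, 95% interval 0.68 to 1.93, 2.47-fold, adjusted p = 0.00513). On 40% HFD against ND it was also called (log2 fold change 1.08, SE 0.30, 95% interval 0.45 to 1.70, 2.11-fold, adjusted p = 0.0277). That call was lost without WT ND no ligature replicate 2, 1.02 (adjusted p = 0.0537), WT ND ligature replicate 1, 0.95 (adjusted p = 0.0568), or CCL19-KI ND no ligature replicate 2, 0.90 (adjusted p = 0.0554). It was also lost without WT 40% HFD no ligature replicate 3, 0.98 (adjusted p = 0.0599), WT 40% HFD ligature replicate 3, 1.03 (adjusted p = 0.0570), or CCL19-KI 40% HFD ligature replicate 1, 1.02 (adjusted p = 0.0523). The leave-outs spanned adjusted p of 0.00270 to 0.0599. Without the 2 libraries against their labels *Npr3* was 1.02 (adjusted p = 0.0497) and 1.20 (adjusted p = 0.0172), within 9.66e-05 to 0.982 and 2.71e-06 to 0.969 over the other alternatives. The call of *Npr3* on 40% HFD was lost with edgeR, 0.84 (adjusted p = 0.0780), with quantile normalization, 0.87 (adjusted p = 0.0815), and in a fit of the compared groups alone, 1.08 (adjusted p = 0.0650). It was lost with the epididymal or endothelial marker mean as a covariate, 0.96 (adjusted p = 0.0900) and 0.81 (adjusted p = 0.152). It was also lost for *Npr3* without the 2 libraries highest in mean log2 of epididymal markers, 1.02 (adjusted p = 0.0584), and in the fit of mice without ligature, 0.30 (adjusted p = 0.982).

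*Bmp3*, a ligand of the BMP family that opposes other BMPs, passed the test on 60% HFD alone. It ranged from 22.6 to 340.4 CPM over the 36 libraries, with means of 66.1 ± 37.0 on ND, 80.7 ± 26.5 on 40% HFD and 124 ± 73.4 CPM on 60% HFD (SD, n = 12 mice each). The highest value, 340.4 CPM, came from the library labelled CCL19-KI 60% HFD no ligature, replicate 3, one of the pair against their labels, and the next highest library held 159 CPM. The same library had the highest sums of epididymal epithelium markers (12724 CPM) and of endothelial markers (391 CPM). It was kept when 2 libraries were left out for epididymal markers, as those were chosen by mean log2 value. *Bmp3* was higher on 60% HFD than on ND (log2 fold change 0.93, SE 0.26, 95% interval 0.39 to 1.47, 1.90-fold, adjusted p = 0.0174), and on 40% HFD the difference was 0.37 (adjusted p = 0.378). Without the pair of libraries against their labels it was 0.78 (adjusted p = 0.0384) on 60% HFD, within 4.64e-04 to 0.969 over the other alternatives. The call of *Bmp3* was lost with the endothelial marker mean as a covariate, 0.72 (adjusted p = 0.0901), and in the fit of mice without ligature, 0.85 (adjusted p = 0.969).

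*Nnat*, an imprinted gene expressed from the paternal allele that encodes a small membrane proteolipid, passed the test on neither diet. It ranged from 94.0 to 673 CPM, with group means from 120.5 CPM in CCL19-KI mice on 60% HFD without ligature to 542 CPM in CCL19-KI mice on 40% HFD with ligature. Its log2 difference from ND was 0.41 (adjusted p = 0.321) on 40% HFD and -0.26 (adjusted p = 0.50) on 60% HFD. *Cav1*, which encodes the main structural protein of caveolae, was the member with the highest level per kilobase and ranged from 363 to 3076 CPM. Its difference was 0.46 (adjusted p = 0.233) on 40% HFD and 0.49 (adjusted p = 0.15) on 60% HFD, with a 95% interval on 60% HFD of -0.01 to 0.99. *Cav1* passed the test in both when 1 library, CCL19-KI ND no ligature replicate 1, was left out, at 0.65 (adjusted p = 0.0385) and 0.69 (adjusted p = 0.0179). In the fit of the 18 ligatured mice it passed as well, at 0.85 (adjusted p = 0.0337) and 0.76 (adjusted p = 0.0310), and over all such alternatives adjusted p ran from 0.00330 to 0.997 and from 8.56e-04 to 0.976.

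Counted together, 3 of the 6 members (*Mest*, *Sfrp5* and *Npr3*) were called higher on 40% HFD than on ND, where 9.21% of the tested genes were called and 5.36% were called higher. On 60% HFD, 4 of the 6 (*Mest*, *Sfrp5*, *Npr3* and *Bmp3*) were called higher, where 18.6% of the tested genes were called and 10.2% were called higher. The median log2 fold change of the 6 members was 0.77 on 40% HFD and 1.12 on 60% HFD, beside -0.02 and 0.01 over all genes tested. In the fit of mice without ligature the counts were 0 and 0, beside 0.756% and 0.0118% of genes. The counts were again 3 and 4 without the 2 libraries against their labels. The count on 40% HFD was 2 without 1 of 6 libraries, each named with *Npr3*, and 4 without CCL19-KI ND no ligature replicate 1. On 60% HFD it was 4 to 5. edgeR called 2 and 4 members, and DESeq2 3 and 4. Over all genes, edgeR called 1185 higher and 720 lower on 40% HFD, and 1641 and 1577 on 60% HFD. DESeq2 called 1544 higher and 1106 lower on 40% HFD, and 2297 and 1941 on 60% HFD. Between the high-fat diets, limma called 0 of the 6 at 60% HFD against 40% HFD, where 0.745% of genes were called. There 2 members, *Bmp3* and *Nnat*, had an unadjusted p under 0.05, and edgeR and DESeq2 called 0 each. There *Mest* was 0.61 (adjusted p = 0.463), *Sfrp5* 0.46 (adjusted p = 0.580), *Npr3* 0.23 (adjusted p = 0.776), *Bmp3* 0.55 (adjusted p = 0.365), *Nnat* -0.67 (adjusted p = 0.241) and *Cav1* 0.04 (adjusted p = 0.964). The interval for *Mest* was -0.10 to 1.32, which holds 0 as well as sizeable differences. Leaving out the 2 libraries against their labels also gave 0 members there.

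**Figure D1:**
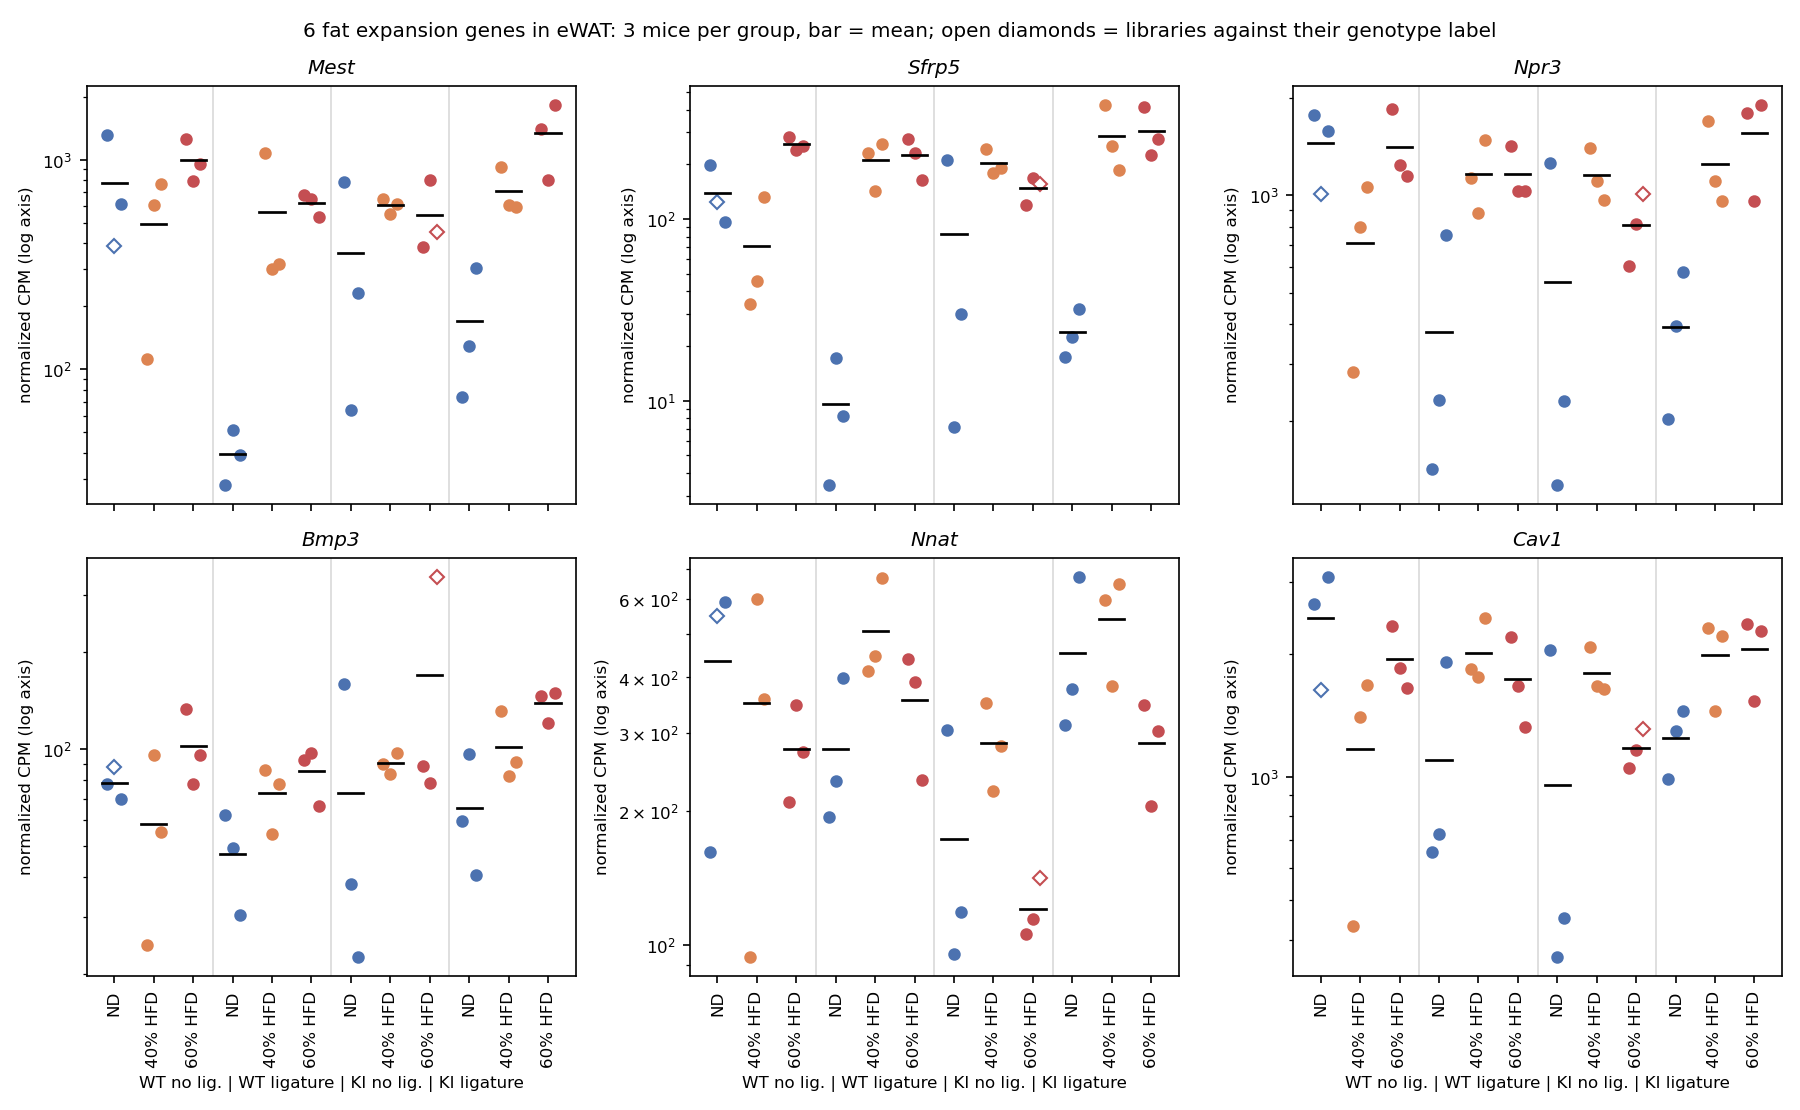
Normalized CPM on a log axis for each of the 6 genes in the 12 groups, with a point per mouse, a bar at the mean of 3 mice, and open diamonds for the 2 libraries against their genotype labels. *Mest*, *Sfrp5* and *Npr3* had their lowest group means in WT mice on ND with ligature, where *Mest* lay at 28.1 to 51.3 CPM.

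Taken within each genotype and ligature state, 3 mice against 3 in the fit shared by all groups, the diet calls stood in the ligatured mice. In WT mice with ligature on 40% HFD, 2 of 6 members were called where 0.207% of genes were: *Mest* at 3.58 (adjusted p = 0.0243) and *Sfrp5* at 4.51 (adjusted p = 0.00418), with *Npr3* at 1.96 (adjusted p = 0.174). On 60% HFD, 2 of 6 members were called beside 2.57% of genes: *Mest* at 3.98 (adjusted p = 0.00457) and *Sfrp5* at 4.6 (adjusted p = 0.00263), with *Npr3* at 1.97 (adjusted p = 0.0760). In CCL19-KI mice with ligature on 40% HFD, 1 of 6 was called beside 4.92% of genes, *Sfrp5* at 3.48 (adjusted p = 0.00469), with *Mest* at 2.27 (adjusted p = 0.0545) and *Npr3* at 1.76 (adjusted p = 0.0833). On 60% HFD 3 of 6 were called beside 12.8% of genes, *Mest* at 3.14 (adjusted p = 0.00570), *Sfrp5* at 3.61 (adjusted p = 0.00232) and *Npr3* at 2.04 (adjusted p = 0.0298). In WT mice without ligature limma called 0 of 6 on 40% HFD, where 6.03% of genes were called and 1 member had an unadjusted p under 0.05. The values of *Mest*, *Sfrp5* and *Npr3* there were negative: -0.86 (adjusted p = 0.488), -1.16 (adjusted p = 0.315) and -1.18 (adjusted p = 0.247). WT 40% HFD no ligature replicate 1, the library lowest in summed adipocyte markers (6503 CPM), held 112, 34.2 and 284 CPM of these genes. Its group mates held 611 and 766, 45.6 and 133, and 798 and 1060 CPM. On 60% HFD limma called 0 of 6 beside 3.41% of genes, with 0 members at an unadjusted p under 0.05. There the values were 0.53 (adjusted p = 0.734), 0.95 (adjusted p = 0.497) and -0.03 (adjusted p = 0.984). In CCL19-KI mice without ligature limma called 0 of 6 on each diet, beside 0% and 10.2% of genes, with 3 members at an unadjusted p under 0.05 each time. There *Mest*, *Sfrp5* and *Npr3* were 1.41 (adjusted p = 0.609), 2.43 (adjusted p = 0.405) and 1.78 (adjusted p = 0.435) on 40% HFD, and 1.19 (adjusted p = 0.244), 1.97 (adjusted p = 0.0585) and 1.25 (adjusted p = 0.159) on 60% HFD. Over these 48 tests of members, limma made 8 calls, edgeR 7 and DESeq2 9. The shares of all genes that edgeR and DESeq2 called over these tests are not given here. With limma, 9 calls were made without the 2 libraries against their labels, where *Mest* gained one in CCL19-KI mice with ligature on 40% HFD, 2.27 (adjusted p = 0.0414). In the WT mice without ligature, *Mest*, *Sfrp5* and *Npr3* were then -1.26 (adjusted p = 0.329), -1.2 (adjusted p = 0.352) and -1.42 (adjusted p = 0.196) on 40% HFD, and 0.13 (adjusted p = 0.964), 0.90 (adjusted p = 0.626) and -0.27 (adjusted p = 0.898) on 60% HFD. In the CCL19-KI mice without ligature they were then 1.29 (adjusted p = 0.288), 1.92 (adjusted p = 0.121) and 1.07 (adjusted p = 0.313) on 60% HFD.

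Several of these calls were lost, and others gained, when any of several single libraries was left out. For WT mice with ligature on 40% HFD, *Mest* lost its call without WT ND ligature replicate 1, 3.37 (adjusted p = 0.230), or replicate 2, 3.79 (adjusted p = 0.0920), and without WT 40% HFD ligature replicate 1, 2.98 (adjusted p = 0.105), or replicate 3, 3.86 (adjusted p = 0.104). *Sfrp5* lost it without WT ND ligature replicate 1, 3.99 (adjusted p = 0.0732), or WT 40% HFD ligature replicate 3, 4.34 (adjusted p = 0.0591). *Npr3* gained a call without WT ND ligature replicate 3, the ligatured ND library with its highest *Npr3* value, on 40% HFD, 2.64 (adjusted p = 0.0424), and on 60% HFD, 2.65 (adjusted p = 0.0157). On 60% HFD *Mest* lost its call without WT ND ligature replicate 1, 3.76 (adjusted p = 0.0583). In CCL19-KI mice with ligature on 60% HFD, *Npr3* lost it without CCL19-KI ND ligature replicate 1, 1.63 (adjusted p = 0.0882), or replicate 2, 2.11 (adjusted p = 0.0873), and without CCL19-KI 60% HFD ligature replicate 1, 1.90 (adjusted p = 0.114), or replicate 3, 1.86 (adjusted p = 0.0788). On 40% HFD *Mest* gained a call in those mice without CCL19-KI ND ligature replicate 3, 2.82 (adjusted p = 0.0411). It gained one, at an unchanged log2 fold change of 2.27, without WT ND no ligature replicate 1 (adjusted p = 0.0496) or 2 (0.0467), CCL19-KI ND no ligature replicate 1 (0.0301) or 2 (0.0336), WT 40% HFD no ligature replicate 1 (0.0331), WT 40% HFD ligature replicate 1 (0.0499) or CCL19-KI 60% HFD no ligature replicate 3 (0.0492). Over all leave-outs of 1 library, adjusted p for *Mest* ran from 0.00460 to 0.230 in WT and 0.0301 to 0.201 in CCL19-KI mice with ligature on 40% HFD, and from 0.00111 to 0.0583 in WT mice on 60% HFD. For *Sfrp5* in WT mice on 40% HFD it ran from 1.90e-05 to 0.0732, and for *Npr3* from 0.0424 to 0.767 and 0.0157 to 0.394 in WT mice and 0.00823 to 0.114 in CCL19-KI mice on 60% HFD.

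CCL19-KI ND no ligature replicate 1 was the library with most weight, at 786 CPM of *Mest*, 211 of *Sfrp5* and 1255 of *Npr3* where its 2 group mates held 64.2 and 232, 7.18 and 30.0, and 127 and 231. Hepatocyte markers summed to 1108 CPM in replicate 1 and to 25565 and 29361 CPM in these mates. Adipocyte markers summed to 16574 CPM in replicate 1 and to 8766 and 7879 CPM in the mates. The part of these markers in the calls gained without replicate 1 was not tested. Without that library, members called over the 48 tests went from 8 to 20, while calls over all genes in the same comparisons went from 5.02% to 8.63% of tests. In CCL19-KI mice without ligature, *Sfrp5* then passed on 40% HFD, 3.68 (adjusted p = 2.87e-04), and on 60% HFD, 3.21 (adjusted p = 5.97e-04). *Npr3* passed there at 2.73 (adjusted p = 0.00610) and 2.20 (adjusted p = 0.00655), and *Mest* on 60% HFD at 2.08 (adjusted p = 0.0303). *Cav1* passed there at 2.13 (adjusted p = 0.00651) and 1.53 (adjusted p = 0.0143), *Bmp3* on 60% HFD at 2.15 (adjusted p = 0.00379), and *Cav1* was called lower in WT mice without ligature on 40% HFD, -1.23 (adjusted p = 0.0461). *Bmp3* in CCL19-KI mice without ligature on 60% HFD, 1.35 (adjusted p = 0.0863) with all libraries, also gained a call without CCL19-KI 60% HFD no ligature replicate 2, 1.73 (adjusted p = 0.0465). Without CCL19-KI ND no ligature replicate 1, *Npr3* also passed in CCL19-KI mice with ligature on 40% HFD, 1.76 (adjusted p = 0.0342). It passed as well in WT mice with ligature on 60% HFD, 1.97 (adjusted p = 0.0268), without that ND library. These values of *Npr3*, and that of *Cav1* in WT mice, were the same log2 fold changes as with all libraries. The groups compared there do not hold that library, so that only the shared fit and the adjustment over genes moved. The leave-outs spanned adjusted p of 2.87e-04 to 1.00 and 5.97e-04 to 0.421 for *Sfrp5*, of 0.00610 to 1.00 and 0.00655 to 0.638 for *Npr3* and of 0.0303 to 0.848 for *Mest* in the mice without ligature, and of 0.0342 to 0.258 for *Npr3* with ligature. Without WT ND ligature replicate 1, members called over the 48 tests were 5, beside 4.09% of the tests of all genes.

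**Figure D2:**
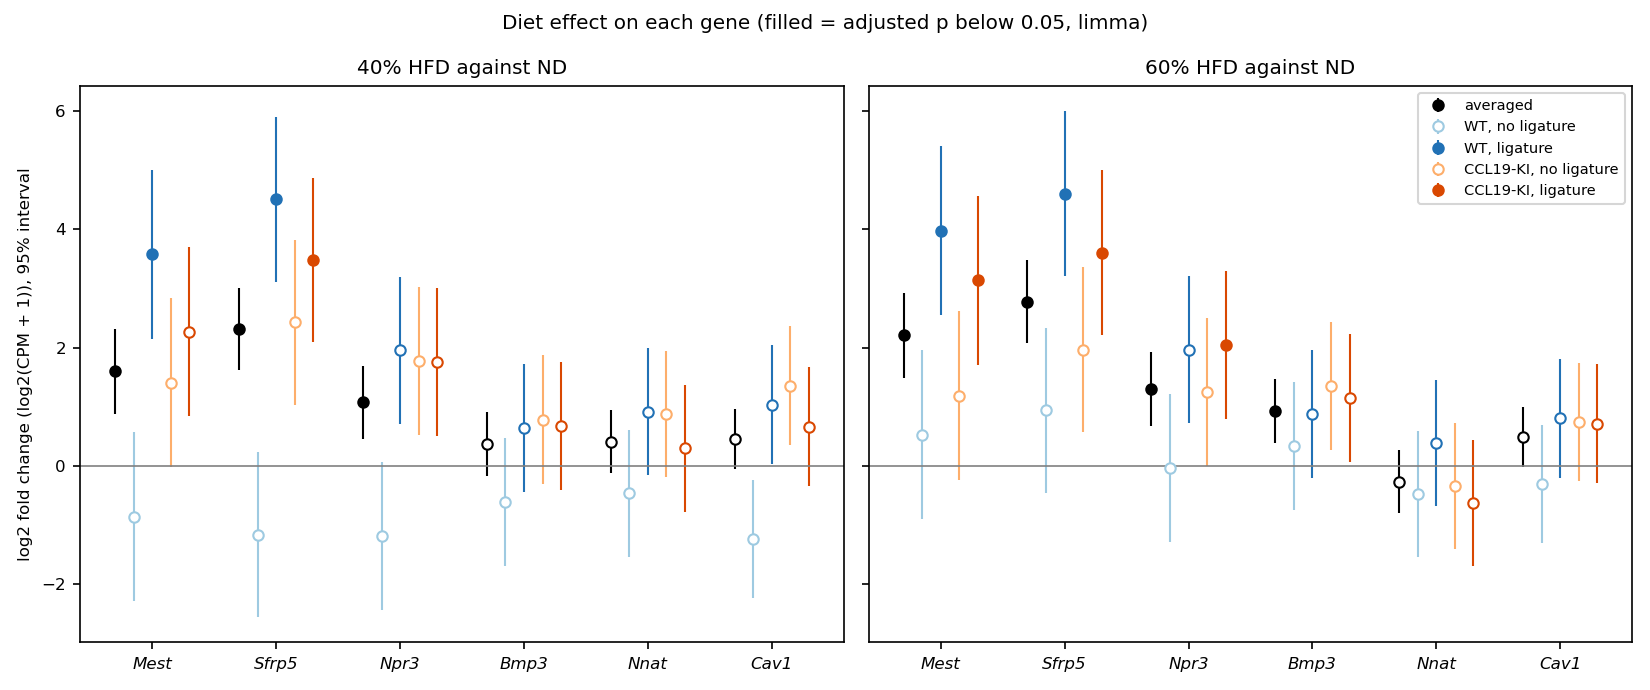
Log2 fold change of each gene on 40% HFD (left) and 60% HFD (right) against ND, averaged over the groups and within each genotype and ligature state, with 95% intervals from limma; filled points had an adjusted p below 0.05. The points for WT mice without ligature on 40% HFD lay below 0 for *Mest* (-0.86), *Sfrp5* (-1.16) and *Npr3* (-1.18), a sign that turned positive for *Mest* and *Npr3* with the hepatocyte marker mean as a covariate.

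The ligature comparison asks whether oral inflammation leaves a trace in the fat depot. Among ND mice, *Mest* and *Sfrp5* were lower with ligature. On ND, *Mest* ranged from 28.1 to 306 CPM with ligature and from 64.2 to 1315 CPM without (n = 6 mice each), and *Sfrp5* from 3.45 to 32.0 and 7.18 to 211 CPM, so that both ranges overlapped. Averaged over genotype on ND, 2 of 6 members were called lower, beside 1.29% of genes called: *Mest* (log2 fold change -2.39, SE 0.49, 95% interval -3.40 to -1.38, 0.191-fold, adjusted p = 0.0183) and *Sfrp5* (log2 fold change -2.26, SE 0.48, 95% interval -3.25 to -1.28, 0.208-fold, adjusted p = 0.0201), with *Npr3* at -1.08 (adjusted p = 0.199). The count was again 2 without the pair of libraries against their labels, with *Mest* at -2.59 (adjusted p = 0.00630) and *Sfrp5* at -2.29 (adjusted p = 0.0125). The call of *Mest* was lost without WT ND no ligature replicate 1, -2.15 (adjusted p = 0.0724), or WT ND ligature replicate 1, -2.28 (adjusted p = 0.0732). The call of *Sfrp5* was lost without either, -2.12 (adjusted p = 0.0724) and -2.01 (adjusted p = 0.0867), or without CCL19-KI ND ligature replicate 2, -2.25 (adjusted p = 0.0543), and it was -1.64 (adjusted p = 0.0256) without CCL19-KI ND no ligature replicate 1. These leave-outs spanned adjusted p of 0.00539 to 0.0732 for *Mest* and 0.00390 to 0.0867 for *Sfrp5*. In a fit of the ND groups alone, 0 members were called, with *Mest* at -2.39 (adjusted p = 0.106) and *Sfrp5* at -2.26 (adjusted p = 0.168). Over the alternatives but the leave-outs the ranges were 2.79e-06 to 0.106 and 8.50e-07 to 0.168. Of the 16 marker lists, 3 had genes called for ligature on ND: 1 of 10 endothelial and 1 of 8 neuron markers higher, and 1 of 7 exocrine pancreas markers lower. Of 8 mesothelial markers 0 were called and 4 had an unadjusted p under 0.05, with a median log2 fold change of 0.87 and *Upk3b* the most abundant at 44.1 to 836 CPM. The 8 summed on ND to 474, 556 and 549 in WT mice without ligature, 1414, 1349.9 and 1215 in WT mice with ligature, 1980.2, 815 and 811 in CCL19-KI mice without ligature, and 1016, 1369 and 921 in CCL19-KI mice with ligature. The sums of mesothelial and hepatocyte markers were higher with ligature in all WT mice on ND and overlapped in CCL19-KI mice. Of 8 skeletal muscle markers 0 were called and 4 had an unadjusted p under 0.05, with a median of 0.81. Led by *Acta1*, they summed to 99.0, 129 and 507 CPM in CCL19-KI mice on ND with ligature and 34.6, 42.2 and 89.5 CPM without, and overlapped in WT mice at 51.2 to 131 and 42.2 to 88.7 CPM. The part of these markers in the lower *Mest* and *Sfrp5* was not tested.

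On the high-fat diets no such difference passed the test. With 40% HFD and with 60% HFD limma called 0 of 6 for ligature, beside 0% of genes on each, with 2 members and 1 member at an unadjusted p under 0.05. Over the 3 diets edgeR and DESeq2 called 2 members each for ligature, the number limma called with and without the pair of libraries against their labels. For edgeR and DESeq2 the shares of all genes are not given here. The values of *Mest*, *Sfrp5* and *Npr3* were 0.26 (adjusted p = 0.881), 1.09 (adjusted p = 0.446) and 0.48 (adjusted p = 0.684) on 40% HFD and 0.31 (adjusted p = 0.868), 0.38 (adjusted p = 0.819) and 0.32 (adjusted p = 0.840) on 60% HFD. Averaged over diet and genotype, limma called 0 of 6 beside 0.325% of genes. *Mest* (-0.61 (adjusted p = 0.290)) and *Nnat* (0.72 (adjusted p = 0.116)) were the 2 with an unadjusted p under 0.05, edgeR called 0 and DESeq2 1, *Nnat* at 0.64 (adjusted p = 0.0402). Over all genes, DESeq2 called 355 higher and 454 lower with ligature. *Nnat* averaged 404 ± 155 CPM with and 273 ± 168 CPM without ligature (SD, n = 18 mice each), and it passed the test without WT 40% HFD no ligature replicate 2, 0.82 (adjusted p = 0.0419). The leave-outs spanned 0.0419 to 0.199 and the other alternatives 0.0120 to 0.541. *Sfrp5* was -0.26 (adjusted p = 0.661), *Npr3* -0.09 (adjusted p = 0.885), *Cav1* 0.21 (adjusted p = 0.623), and *Bmp3* -0.02 (adjusted p = 0.978), whose sign was positive under plain CPM scaling and quantile normalization. The count was 0 without the pair of libraries against their labels too.

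Whether the diet effect differed with ligature was tested directly, since calls in the ligatured mice alone do not show it. With all 36 libraries, limma called 0 of 6 members for the difference of the 40% HFD effect between ligature states, beside 0.0056% of genes, and 0 of 6 for that of the 60% HFD effect, beside 0% of genes. In each, 3 members had an unadjusted p under 0.05. The difference for *Mest* was 2.65 (adjusted p = 0.175) and 2.70 (adjusted p = 0.102), that for *Sfrp5* 3.36 (adjusted p = 0.0804) and 2.65 (adjusted p = 0.102), and that for *Npr3* 1.56 (adjusted p = 0.387) and 1.40 (adjusted p = 0.293). Over the 4 tests of this kind, which include genotype, edgeR called 0 members, beside 1.52% of the tests of all genes, and DESeq2 4, beside 3.67%: *Mest* at 2.86 (adjusted p = 0.00282) and 2.96 (adjusted p = 0.00141), and *Sfrp5* at 3.83 (adjusted p = 3.25e-06) and 3.21 (adjusted p = 4.93e-04). Without the 2 libraries against their labels limma called 3, beside 1.73% of tests where all libraries gave 0.12%: *Sfrp5* on 40% HFD, 3.38 (adjusted p = 0.0343), *Mest* on 60% HFD, 2.85 (adjusted p = 0.0285), and *Sfrp5* on 60% HFD, 2.69 (adjusted p = 0.0372). Leaving out WT ND no ligature replicate 2, one of that pair, gave the same 3, at 3.38 (adjusted p = 0.0412), 2.90 (adjusted p = 0.0275) and 2.67 (adjusted p = 0.0391), and leaving out CCL19-KI ND no ligature replicate 2 gave 2, *Sfrp5* at 3.91 (adjusted p = 0.00327) and 3.20 (adjusted p = 0.0449). Over the leave-outs adjusted p ran from 0.0585 to 0.352 and 0.0275 to 0.223 for *Mest* and from 0.00327 to 0.214 and 0.0391 to 0.220 for *Sfrp5*. Over the other alternatives it ran from 0.00279 to 0.392 and 0.00131 to 0.129 for *Mest* and from 3.25e-06 to 0.198 and 4.93e-04 to 0.148 for *Sfrp5*. In the fit of the 18 ligatured mice *Mest* was 2.93 (adjusted p = 3.78e-04) on 40% HFD and 3.56 (adjusted p = 2.50e-05) on 60% HFD, and 4 and 5 members were called, beside 15.9% and 35.6% of genes. In the fit of the 18 mice without ligature *Mest* was 0.28 (adjusted p = 0.991) and 0.86 (adjusted p = 0.969), *Sfrp5* 0.64 (adjusted p = 0.957) and 1.46 (adjusted p = 0.969), and 0 members were called, beside 0.756% and 0.0118% of genes.

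The genotype comparison asks what adipose *Ccl19* expression does to the depot, and no member passed it. Averaged over diet and ligature, limma called 0 of 6 members, beside 0.459% of genes, with 0 at an unadjusted p under 0.05 and 0 called by edgeR and by DESeq2. The log2 differences of CCL19-KI from WT mice were 0.28 (adjusted p = 0.648) for *Mest*, 0.23 (adjusted p = 0.714) for *Sfrp5*, -0.21 (adjusted p = 0.708) for *Npr3*, 0.38 (adjusted p = 0.384) for *Bmp3*, -0.32 (adjusted p = 0.448) for *Nnat* and -0.18 (adjusted p = 0.677) for *Cav1*. Without the 2 libraries against their labels 0 members were called, with *Mest* at 0.23, *Sfrp5* at 0.21 and *Npr3* at -0.28, while genes called over the table went from 82 to 1292. Within ND, 40% HFD and 60% HFD, limma called 0 of 6 each, beside 2.13%, 0.0392% and 0.459% of genes, with 2, 1 and 0 members at an unadjusted p under 0.05. There edgeR and DESeq2 called 0 over the 3 diets, as did limma without the 2 libraries against their labels. *Mest* was 0.15, 0.62 and 0.06 in the 3 diets, *Sfrp5* -0.21, 1.08 and -0.19, and *Npr3* -0.89, 0.49 and -0.21. The difference of the diet effect between genotypes had 0 of 6 members called on 40% HFD, beside 0% of genes and with 2 at an unadjusted p under 0.05, and 0 of 6 on 60% HFD, beside 0.476% of genes and with 0. For *Mest* it was 0.48 (adjusted p = 0.844) and -0.09 (adjusted p = 0.956), for *Sfrp5* 1.28 (adjusted p = 0.494) and 0.01 (adjusted p = 0.996), and for *Npr3* 1.38 (adjusted p = 0.388) and 0.68 (adjusted p = 0.522). Without CCL19-KI ND no ligature replicate 1, *Npr3* and *Cav1* on ND were lower in CCL19-KI than in WT mice, -1.37 (adjusted p = 0.0184) and -1.10 (adjusted p = 0.0178). On 40% HFD the difference of the diet effect then passed for *Sfrp5*, 1.91 (adjusted p = 0.0394), *Npr3*, 1.86 (adjusted p = 0.0449), and *Cav1*, 1.5 (adjusted p = 0.0422). Calls over all genes went from 0.878% to 4.6% of the tests of genotype within diets and from 0.12% to 3.58% of the tests of differences of the diet effect. The leave-outs spanned 0.0184 to 0.552 and 0.0178 to 0.528 on ND, and 0.0394 to 0.796, 0.0449 to 0.691 and 0.0422 to 0.682 for the difference.

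In the order of the 12 group means, CCL19-KI mice on 60% HFD with ligature came first for *Mest*, *Sfrp5* and *Npr3*, and WT mice on ND with ligature came last for *Mest*, *Sfrp5*, *Npr3* and *Bmp3*. The means of *Mest* descended from 1343 CPM in that first group through 1001 in WT 60% HFD no ligature, 772 in WT ND no ligature, 709 in CCL19-KI 40% HFD ligature, 622 in WT 60% HFD ligature and 606 in CCL19-KI 40% HFD no ligature. They went on through 567 in WT 40% HFD ligature, 547 in CCL19-KI 60% HFD no ligature, 496 in WT 40% HFD no ligature, 361 in CCL19-KI ND no ligature and 169 in CCL19-KI ND ligature to 39.4 in WT ND ligature. Of the 11 neighbouring pairs in this order, 10 had overlapping ranges, and the exception was the step from CCL19-KI to WT mice on ND with ligature. For *Sfrp5*, whose means ran from 305 to 9.61 CPM, 8 of 11 pairs overlapped. The gaps lay between CCL19-KI 40% HFD and 60% HFD without ligature, between WT 40% HFD no ligature and CCL19-KI ND ligature, and at the last step. For *Npr3* (1552 to 377 CPM), *Bmp3* (169 to 47.3 CPM), *Nnat* (542 to 120.5 CPM) and *Cav1* (2447 to 952 CPM), all 11 neighbouring pairs overlapped.

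The members differed in how they moved with each other. Over the 36 libraries, which share their groups and the authors' scaling, Pearson's r of log2 values was 0.92 between *Mest* and *Sfrp5*, 0.86 between *Mest* and *Npr3* and 0.88 between *Sfrp5* and *Npr3*. *Cav1* went with *Npr3* (r = 0.91), while *Mest* and *Nnat* had an r of 0.21. After the 12 group means were removed, r was 0.78 for *Mest* and *Sfrp5*, 0.77 for *Mest* and *Npr3*, 0.94 for *Npr3* and *Cav1* and 0.45 for *Mest* and *Nnat*. *Lep*, which encodes leptin, the hormone that circulates in proportion to fat mass, had an r of 0.84 with *Mest*, 0.88 with *Sfrp5*, 0.92 with *Npr3*, 0.67 with *Bmp3*, 0.79 with *Cav1* and 0.19 with *Nnat*. Against the mean of the adipocyte markers, r was 0.24 for *Mest*, 0.30 for *Sfrp5*, 0.51 for *Npr3*, 0.25 for *Bmp3*, 0.72 for *Nnat* and 0.69 for *Cav1*. After the group means were removed it was 0.48 for *Mest*, 0.42 for *Sfrp5*, 0.56 for *Npr3*, 0.51 for *Bmp3*, 0.67 for *Nnat* and 0.67 for *Cav1*.

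Of all genes tested, the 5 whose pattern over the 36 libraries was most like that of *Mest* were *Gm4912* (r = 0.92), *Sfrp5* (0.92), *Klf14* (0.92), *Synpo2* (0.92) and *Lbp* (0.91). Those most like *Sfrp5* were *Gm4912* (0.94), *Fgf13* (0.94), *Synpo2* (0.93), *Prr32* (0.93) and *Syp* (0.93). For *Npr3* they were *Prr32* (0.97), *Lrrc39* (0.97), *Tmem182* (0.96), *Tspan17* (0.96) and *Hspa12a* (0.95). *Bmp3* had *Glb1* (0.85), *Pcyox1* (0.85), *Abhd12* (0.84), *Tinagl1* (0.83) and *Sumf1* (0.83), and *Nnat* had *Eepd1* (0.87), *Lgals12* (0.87), *Ebf1* (0.86), *Pygb* (0.85) and *Vegfb* (0.84). *Cav1* had *Cav2* (0.98), *Epb41l2* (0.96), *Ehd2* (0.96), *Hspa12a* (0.95) and *Dmtn* (0.95).

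The genes around each member were counted on 60% HFD against ND, where 18.6% of genes were called. Of 23 WNT modulators, ligands and receptors tested beside *Sfrp5*, 3 were called higher and 5 lower. *Wnt2b*, a WNT ligand, went from 137 ± 80.9 to 56.2 ± 29.3 CPM (log2 fold change -1.25, adjusted p = 0.00455), and *Dkk3*, a secreted Dickkopf-family protein, from 24.3 ± 11.3 to 13.9 ± 6.00 CPM (log2 fold change -0.73, adjusted p = 0.0111). *Ror2*, a receptor tyrosine kinase of the WNT pathway, went from 5.07 ± 1.48 to 3.02 ± 1.5 CPM (log2 fold change -0.65, adjusted p = 0.0133), and *Sfrp4*, a secreted WNT antagonist, from 15.0 ± 9.10 to 27.6 ± 13.4 CPM (log2 fold change 0.89, adjusted p = 0.0384). Of 9 natriuretic peptide pathway genes beside *Npr3*, 5 were tested, and 1 was called lower, the cGMP-dependent kinase gene *Prkg1*, from 12.7 ± 5.77 to 7.71 ± 2.75 CPM (log2 fold change -0.58, adjusted p = 0.0443). The peptide genes *Nppa*, *Nppb*, *Nppc* and *Ostn* were not in the table. Of 31 BMP ligands, antagonists, receptors and targets beside *Bmp3*, 3 were called higher and 7 lower. *Chrdl1*, a BMP antagonist gene, went from 208 ± 89.2 to 128 ± 36.5 CPM (log2 fold change -0.65, adjusted p = 0.0305). The ligand genes *Gdf10* and *Bmp4* went from 36.5 ± 17.2 to 17.7 ± 7.28 CPM (log2 fold change -0.93, adjusted p = 0.00631) and from 23.2 ± 9.30 to 14.5 ± 7.02 CPM (log2 fold change -0.68, adjusted p = 0.0278). On 40% HFD against ND the counts were 1 higher and 1 lower in the WNT list, 0 and 0 in the natriuretic peptide list, and 2 and 2 in the BMP list.

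Of 25 other imprinted genes tested, 6 were called higher and 3 lower on 60% HFD, and 5 and 3 on 40% HFD. *Peg10*, a retrotransposon-derived gene expressed from the paternal allele, went from 19.0 ± 14.1 to 87.6 ± 37.7 CPM (log2 fold change 2.23, adjusted p = 1.72e-05) on 60% HFD. *Slc38a4*, an amino acid transporter gene, went from 114 ± 192 to 177 ± 152 CPM (log2 fold change 2.16, adjusted p = 0.0372), *Klf14*, a transcription factor gene, from 4.23 ± 5.04 to 10.7 ± 4.97 CPM (log2 fold change 1.61, adjusted p = 1.45e-04), and *Peg3*, a zinc finger gene, from 132 ± 58.6 to 290.1 ± 104 CPM (log2 fold change 1.2, adjusted p = 0.00362). Of 9 other caveola genes beside *Cav1*, 1 was called higher on each diet. On 60% HFD it was *Cavin1*, which encodes a coat protein of caveolae, from 974 ± 527 to 1438 ± 357 CPM (log2 fold change 0.71, adjusted p = 0.0176). Of 15 genes next to or overlapping a member, 4 were called higher on 60% HFD and 0 on 40% HFD. *Copg2*, which overlaps *Mest* on the opposite strand, went from 66.1 ± 24.6 to 109 ± 31.0 CPM (log2 fold change 0.73, adjusted p = 9.34e-04). *Crtac1* and *Golga7b*, near *Sfrp5*, went from 18.0 ± 14.6 to 39.6 ± 14.3 CPM (log2 fold change 1.42, adjusted p = 0.00251) and from 3.30 ± 3.88 to 5.69 ± 2.34 CPM (log2 fold change 1.04, adjusted p = 0.0104), and *Tti1*, near *Nnat*, from 16.9 ± 3.29 to 20.7 ± 2.92 CPM (log2 fold change 0.29, adjusted p = 0.0137). Of 20 adipokine and storage genes, 3 were called higher and 4 lower on 60% HFD, and 3 and 0 on 40% HFD. *Lep* went from 949 ± 1199 to 2007 ± 577 CPM (log2 fold change 1.84, adjusted p = 0.00143), *Cfd*, which encodes adipsin, from 4495 ± 3075 to 563 ± 314 CPM (log2 fold change -2.72, adjusted p = 7.45e-05), *Retn*, which encodes resistin, from 664 ± 358 to 345 ± 166 CPM (log2 fold change -0.94, adjusted p = 0.0138), and *Pck1*, which encodes an enzyme of glyceroneogenesis, from 2527 ± 1613 to 1445 ± 895 CPM (log2 fold change -0.85, adjusted p = 0.0443).

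Markers of hepatocytes, cells foreign to this depot, were called higher on the high-fat diets averaged over genotype and ligature, as were *Mest*, *Sfrp5* and *Npr3*. Of 10 hepatocyte markers 8 were called higher on 40% HFD and 8 on 60% HFD, with median log2 fold changes of 3.90 and 3.05. *Alb*, which encodes serum albumin, was the most abundant at 5.55 to 26901 CPM, and none of the 10 was at 0 in all libraries. The 10 summed on ND to 132, 1126 and 1541 in WT mice without ligature, 13962, 13833 and 4342 in WT mice with ligature, 1108, 25565 and 29361 in CCL19-KI mice without ligature, and 9243, 1749.7 and 2705 in CCL19-KI mice with ligature. On 40% HFD they summed to 32059, 9696 and 34505 in WT mice without ligature, 8821, 1825 and 26264 in WT mice with ligature, 7605, 38435 and 23214 in CCL19-KI mice without ligature, and 9350.4, 41859.8 and 4625 in CCL19-KI mice with ligature. On 60% HFD they summed to 10063, 29027 and 41696 in WT mice without ligature, 16617, 12264 and 37261 in WT mice with ligature, 917, 1586 and 1392 in CCL19-KI mice without ligature, and 21613, 18198 and 2914 in CCL19-KI mice with ligature. Over the 36 libraries r between *Mest* and the mean of these markers was 0.01, and -0.39 after the group means were removed. In the same order r was 0.09 and -0.31 for *Sfrp5*, and -0.12 and -0.57 for *Npr3*. With the hepatocyte marker mean as a covariate, *Mest* was 2.21 (adjusted p = 0.00885) on 40% HFD and 2.68 (adjusted p = 2.06e-04) on 60% HFD, in the ranges over alternatives given with *Mest*. The source of these transcripts and their part in the rise of *Mest*, *Sfrp5* and *Npr3* were not tested.

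**Figure D3:**
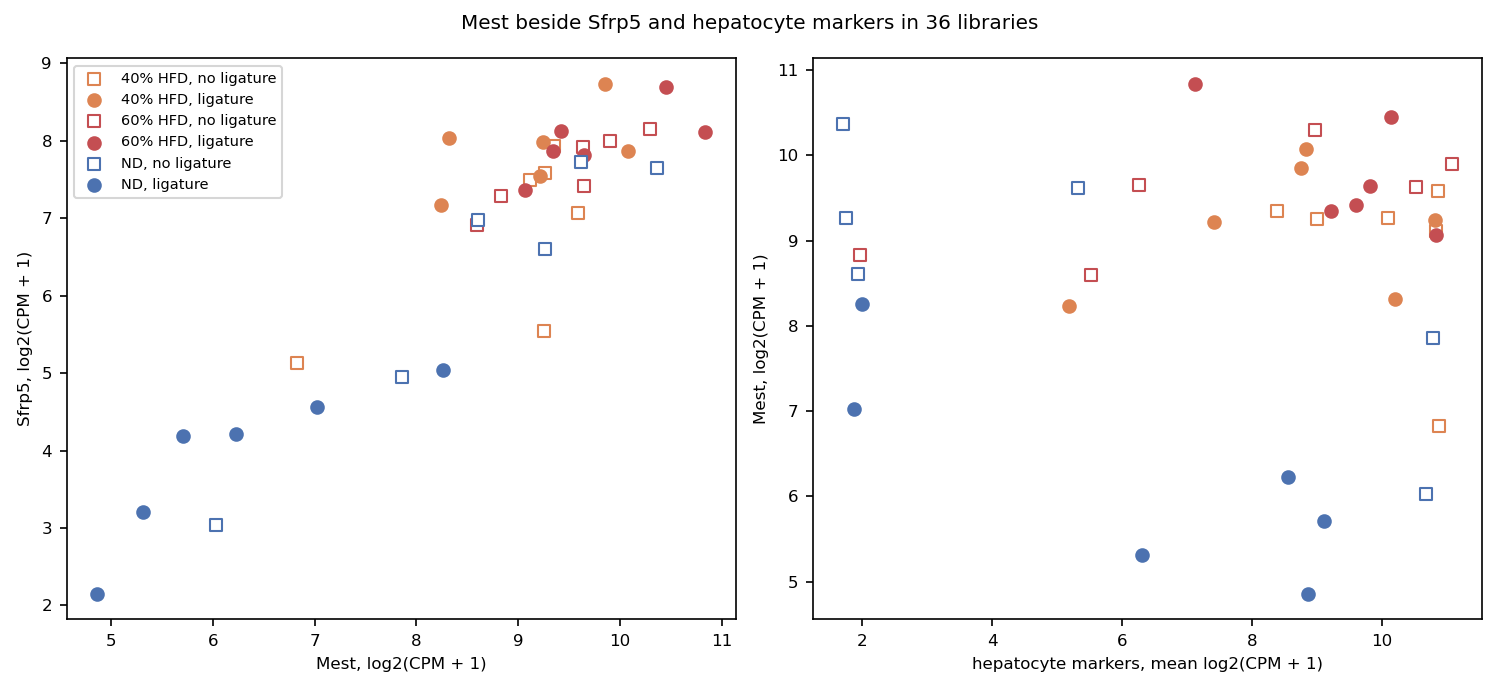
*Mest* against *Sfrp5* (left) and against the mean of 10 hepatocyte markers (right), all as log2(CPM + 1), with a point per library coloured by diet and filled for ligatured mice. *Mest* and *Sfrp5* lay along a line (r = 0.92 over 36 libraries that share 12 groups), while *Mest* and the hepatocyte markers did not (r = 0.01).

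Markers of lipid-associated macrophages, which take up lipid in expanding fat, moved with 60% HFD: 8 of 10 were called higher against ND and 0 on 40% HFD, and 2 were called higher on 60% HFD than on 40% HFD. The most abundant of them, *Lpl*, which adipocytes express too, ranged from 1026 to 11726 CPM and also stands in the adipokine and storage list. The 10 summed on ND to 8666, 4814 and 10085 in WT mice without ligature, 5733, 4635 and 5528 in WT mice with ligature, 6351, 1995 and 2316 in CCL19-KI mice without ligature, and 3034, 3047 and 3482 in CCL19-KI mice with ligature. On 40% HFD they summed to 1197, 3869 and 5411 in WT mice without ligature, 6792, 4919.9 and 7559.9 in WT mice with ligature, 7837, 6710.1 and 5691 in CCL19-KI mice without ligature, and 7770.0, 5296 and 8147 in CCL19-KI mice with ligature. On 60% HFD they summed to 10589, 6109 and 5911 in WT mice without ligature, 7192, 5672 and 6216 in WT mice with ligature, 4084, 5246 and 6117 in CCL19-KI mice without ligature, and 10509, 6643 and 12056 in CCL19-KI mice with ligature. The median log2 fold change of the 10 was 1.34 on 60% HFD and 0.44 on 40% HFD. The other 9, without *Lpl*, summed to 157 to 1100.0 CPM on ND (median 183), 171 to 816 on 40% HFD (median 252) and 230.4 to 1511 CPM on 60% HFD (median 650.1). The ranges on the diets overlapped, and the part of these cells in the rise of *Mest*, *Sfrp5*, *Npr3* and *Bmp3* was not tested.

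Of 8 kidney tubule markers, 4 were called higher on 60% HFD and 0 on 40% HFD, with *Kap* the most abundant at 0 to 136 CPM. They summed on ND to 0.109, 60.5 and 1.05 in WT mice without ligature, 0.207, 19.8 and 0.774 in WT mice with ligature, 4.81, 38.7 and 36.5 in CCL19-KI mice without ligature, and 18.1, 10.4 and 5.21 in CCL19-KI mice with ligature. On 40% HFD the sum was 156, 12.7 and 12.2 in WT mice without ligature, 5.86, 2.47 and 4.89 in WT mice with ligature, 4.62, 195 and 47.7 in CCL19-KI mice without ligature, and 17.3, 30.0 and 12.0 in CCL19-KI mice with ligature. On 60% HFD it was 123, 131 and 88.1 in WT mice without ligature, 69.8, 241 and 11.4 in WT mice with ligature, 4.66, 20.0 and 61.6 in CCL19-KI mice without ligature, and 2.70, 187 and 12.8 in CCL19-KI mice with ligature. Most of the higher sums were those of mice on the high-fat diets, and their part in the rise of *Mest* was not tested. Of 8 skeletal muscle markers, 5 were called lower on 40% HFD and 2 on 60% HFD, with *Acta1* the most abundant at 16.2 to 211 CPM. Their sum on ND was 88.7, 76.6 and 42.2 in WT mice without ligature, 51.2, 54.3 and 131 in WT mice with ligature, 89.5, 42.2 and 34.6 in CCL19-KI mice without ligature, and 507, 129 and 99.0 in CCL19-KI mice with ligature. On 40% HFD it was 19.7, 63.3 and 42.1 in WT mice without ligature, 123, 96.1 and 51.1 in WT mice with ligature, 48.2, 19.5 and 32.1 in CCL19-KI mice without ligature, and 25.9, 21.8 and 40.1 in CCL19-KI mice with ligature. At 60% HFD the values were 52.4, 49.4 and 113 in WT mice without ligature, 42.1, 35.1 and 24.7 in WT mice with ligature, 121, 87.6 and 97.1 in CCL19-KI mice without ligature, and 44.8, 51.4 and 131 in CCL19-KI mice with ligature. Its highest value stood in a ligatured ND mouse, and its part in the values of *Mest* was not tested.

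Of 10 endothelial markers, 3 were called higher on 40% HFD, and 2 higher and 1 lower on 60% HFD, with *Kdr*, a VEGF receptor gene, the most abundant at 28.4 to 118 CPM. They summed on ND to 152, 204 and 146 in WT mice without ligature, 219, 219 and 213 in WT mice with ligature, 248, 155 and 193 in CCL19-KI mice without ligature, and 219, 181 and 175 in CCL19-KI mice with ligature. On 40% HFD the sum was 156, 198 and 262 in WT mice without ligature, 219, 206 and 207 in WT mice with ligature, 297, 299 and 314 in CCL19-KI mice without ligature, and 217, 253 and 189 in CCL19-KI mice with ligature. With 60% HFD they were 206, 203 and 196 in WT mice without ligature, 159.6, 175 and 191 in WT mice with ligature, 209, 257 and 391 in CCL19-KI mice without ligature, and 258, 214 and 277 in CCL19-KI mice with ligature. With their mean as a covariate, 1 member, *Sfrp5*, was called on 40% HFD and 3 on 60% HFD, where *Bmp3* was lost. Over all genes, that fit called 257 higher and 248 lower on 40% HFD, and 1014 and 780 on 60% HFD. *Sfrp5* was 2.00 (adjusted p = 0.0161) and 2.52 (adjusted p = 3.35e-04). Endothelial cells also express *Cav1*. Of 12 adipocyte markers 1 was called higher on 40% HFD, and 2 higher and 1 lower on 60% HFD, with median sums of 16050.2 CPM on ND, 18157 on 40% HFD and 14469 on 60% HFD. Of 10 macrophage markers, led by *Lyz2* at 360.3 to 1963 CPM, 0 were called on 40% HFD, and 2 higher and 1 lower on 60% HFD. The lists of 12 progenitor and fibroblast, 8 B cell, 7 T cell and 8 germ cell markers tested had 0 called on either diet. Their most abundant genes were *Col3a1* at 894 to 3915 CPM, *Ms4a1* at 0.512 to 54.5, *Cd2* at 1.35 to 8.48 and *Prm2* at 0 to 253 CPM. Of 8 mesothelial markers 0 and 1 were called lower on the diets, of 8 smooth muscle markers, led by *Acta2* at 61.8 to 1458 CPM, 1 and 1 lower, and of 8 neuron markers, led by *Stmn2* at 1.49 to 33.3 CPM, 2 and 1 lower. Of 7 exocrine pancreas markers, led by *Cela1* at 4.00 to 62.5 CPM, 0 and 1 were called higher, and of 6 epididymal epithelium markers tested 0 were called. No list had a marker at 0 in all libraries. Without the 2 libraries with the highest mean log2 value of epididymal markers, 2 members were called on 40% HFD and 4 on 60% HFD, with *Mest* at 1.5 (adjusted p = 0.0182) and 2.03 (adjusted p = 0.00190) and *Npr3* at 1.02 (adjusted p = 0.0584) on 40% HFD. Over all genes, 670 were then called higher and 416 lower on 40% HFD, and 1274 and 1110 on 60% HFD. The ranges over alternatives are those given with each gene.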

How the data were processed

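Deposited values came from eWAT RNA-seq of 36 mice, after rRNA depletion and directional library preparation on a DNBSEQ-G400. The authors trimmed reads with Trimmomatic 0.38, counted them with Bowtie2 within RSEM 1.3.0 and normalized them with edgeR, so that the deposited signal is edgeR-normalized counts per library size (CPM) of 24750 genes. Their text names mm10 transcripts, while the processing notes list GRCm39. Library totals were recovered from the values: at a tolerance of 0.01 reads, 100% of values were whole numbers of reads. Values were taken as log2(CPM + 1), genes with at least 1 CPM in at least 3 libraries were kept, and all 12 groups of 3 mice were fitted together in limma 3.58.1 (eBayes with trend, R 4.3.3) with 23 two-sided contrasts. Benjamini-Hochberg adjustment ran over all 17852 genes tested, and a gene was called at an adjusted p below 0.05. An exact permutation test of 3 mice against 3 cannot go below 0.10, so none was used. Every other p is from the same limma fit, or from edgeR 4.0.16 or DESeq2 1.42.0 on the recovered reads where named.

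The members and gene lists were chosen with earlier results of these data known. Lists covered WNT, natriuretic peptide and BMP genes, imprinted genes, caveolae, neighbours of members, adipokines and storage, and markers of 16 cell types or tissues. Genes were named by rule: the members, up to 4 called genes per list with the largest absolute log2 fold change on 60% HFD against ND, the 5 genes most like each member by Pearson's r, and the most abundant marker of each list. Of the genes so named, 1 is not reported here. Positions came from GENCODE M21 on GRCm38 and promoters from RefSeq. The 19 alternatives listed first changed the pseudocount, filter, scaling, variance model, sample weights or test, used the replicate number as a block or a marker mean as a covariate, fitted only the compared groups, left out each mouse in turn, or took the study's call rule. After seeing the data, 4 were added, namely fits of the ligatured mice alone, of the mice without ligature alone, without the 2 libraries against their genotype labels, and without the 2 libraries with the highest epididymal marker mean. Sequence reading and figures used Python 3.11.15, numpy 2.4.6, pandas 2.3.3 and matplotlib 3.10.9. Replicates are separate mice according to the labels and the paper.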

Additional observations from a re-analysis of the deposited data

How the results depend on the processing

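*Mest* and *Sfrp5* on 60% HFD against ND, and *Sfrp5* on 40% HFD, kept direction and call under each alternative but the fit of mice without ligature, where no member was called. Of the comparisons of a member with an alternative other than leaving out 1 mouse, 1488 kept direction and side of the threshold, 63 changed sign, 57 gained a call and 24 lost one; with 1 mouse left out these were 2930, 44, 28 and 22. Sign changes were of values that had not passed the test, and where no construction is named the cause was not tested. Read depth gave at least 50 reads to a member in any library. The library weights did not fully converge.

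Members changed sign as follows. For the 60% HFD effect in CCL19-KI minus WT mice, *Sfrp5* was -0.021 with a pseudocount of 0.1, -0.0092 with median-of-ratios factors, -0.49 in edgeR, -0.49 in DESeq2, -0.44, -0.64 and -0.50 with adipocyte, hepatocyte and endothelial covariates, and -0.015 without the 2 libraries highest in mean log2 of epididymal markers. *Mest* there was 0.52 with weights, 0.13 with the epididymal covariate and 0.16 without the 2 libraries against their labels, and *Npr3* was -0.38 with the hepatocyte covariate. For the 40% HFD effect *Mest* was -0.22 in edgeR, -0.22 in DESeq2 and -0.62 with the adipocyte covariate. For 60% against 40% HFD *Cav1* was -0.0040 with weights, -0.027 in edgeR, -0.017 in DESeq2, -0.11 with the hepatocyte covariate and -0.090 in ligatured mice. On 60% HFD against ND *Nnat* was 0.13 with the hepatocyte covariate.

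For ligature *Bmp3* was 0.0030 under quantile normalization, 0.040 under plain CPM, 0.41 with weights, 0.052 and 0.055 with hepatocyte and endothelial covariates, and 0.11 without the libraries against their labels. *Sfrp5* (0.087) and *Npr3* (0.059) turned with weights, *Npr3* with the hepatocyte covariate (0.0048) and *Cav1* with the adipocyte covariate (-0.19). With the adipocyte covariate, ligature on 40% HFD gave *Mest* -0.37 and *Npr3* -0.17, and on 60% HFD *Mest* -0.16, *Sfrp5* -0.022 and *Npr3* -0.17. In WT mice without ligature, *Npr3* on 60% HFD was 0.24 with the adipocyte and 1.81 with the hepatocyte covariate, and on 40% HFD the latter gave *Mest* 0.61 and *Npr3* 0.67.

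For CCL19-KI against WT, the adipocyte covariate gave *Npr3* 0.19, *Nnat* 0.082 and *Cav1* 0.20, ligatured mice alone 0.25, 0.16 and 0.19 for these, the endothelial covariate *Sfrp5* -0.098, and mice without ligature *Mest* -0.60 and *Sfrp5* -0.30. Within ND, *Sfrp5* was 0.32 in edgeR, 0.31 in DESeq2, 0.59 with the adipocyte and 0.0096 with the hepatocyte covariate, *Npr3* was 0.060 with the adipocyte covariate, and *Mest* was -0.18 with weights, -0.051 without the libraries against their labels and -0.051 without the epididymal libraries. Within 60% HFD, *Npr3* was 0.046 under quantile normalization, the adipocyte covariate gave *Sfrp5* 0.15 and *Npr3* 0.20, and *Mest* was -0.50 and -0.37 with hepatocyte and endothelial covariates and -0.097 without the epididymal libraries.

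Counts of members called moved under some alternatives, and the share of all genes called is given beside each. With all libraries it was 9.21%, 18.6%, 0.745%, 0.459% and 0.325% for 40% HFD and 60% HFD against ND, 60% against 40% HFD, CCL19-KI against WT and ligature. Over the diet tests within genotype and ligature state it was 5.02%, for genotype and ligature within diets 0.878% and 0.429%, and for differences of the diet effect 0.12%. Sample weights gave 6 on 40% HFD against ND (26.9%), 1 for CCL19-KI against WT (21.3%), 1 for ligature (12.6%), 29 over the 48 tests within genotype and ligature state (31.7%), 4 for genotype within diets (21.2%), 4 for ligature within diets (14.2%) and 9 for differences of the diet effect (24.2%). DESeq2 gave 1 for ligature (4.53%) and 4 for differences of the diet effect (3.67%), and the hepatocyte covariate 1 for ligature (2.31%) and 13 over the 48 tests (1.99%). The endothelial covariate gave 1 on 40% HFD (2.83%), where *Mest* was 1.35 (adjusted p = 0.0531), and 1 for differences of the diet effect (0.214%), as did the epididymal covariate (0.251%). Fitting only the compared groups, with fewer mice, gave 0 for ligature within diets (0.157%). In mice without ligature, 18 and not 36, members called were 0 and 0 on the diets (0.756% and 0.0118%), with *Mest* 0.28 (adjusted p = 0.991) and 0.86 (adjusted p = 0.969). Leaving out the 2 libraries against their labels, or the 2 highest in mean log2 of epididymal markers, gave 3 for differences of the diet effect, beside 1.73% and 2.36%. The study's own rule (unadjusted p under 0.05, ratio from 1.5 up or to 0.67 down) gave 1 for 60% against 40% HFD (2.27%), 2 for ligature (1.28%), 21 over the 48 tests (14.1%), 3 for genotype (5.97%) and 6 for ligature within diets (4.58%), and 8 for differences of the diet effect (8.8%).

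With 1 mouse left out, members called ranged from 2 to 4 on 40% HFD, 4 to 5 on 60% HFD and 0 to 1 for ligature; over the 48 tests from 5 to 20, for genotype within diets from 0 to 2, for ligature within diets from 0 to 2 and for differences of the diet effect from 0 to 3. *Mest* ranged over -1.37 to 0.0098 for 40% HFD in WT mice without ligature, -0.17 to 0.52 for ligature on 40% HFD, -0.30 to 0.60 and -0.097 to 0.23 for genotype on ND and 60% HFD, and -0.54 to 0.36 for the 60% HFD effect between genotypes. *Sfrp5* ranged over -0.83 to 0.35 for genotype on ND and -0.54 to 0.63 for the 60% HFD effect between genotypes, *Npr3* over -0.27 to 0.13 for 60% HFD in WT mice without ligature and -0.21 to 0.065 for ligature, *Bmp3* over -0.11 to 0.12 for ligature and *Cav1* over -0.12 to 0.13 for 60% against 40% HFD.

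Over the table, genes called on 40% HFD and 60% HFD against ND, 60% against 40% HFD, CCL19-KI against WT and ligature were 1645, 3315, 133, 82 and 58. With 1 mouse left out they ranged over 845 to 2387, 2412 to 4103, 46 to 289, 53 to 551 and 22 to 272. The lowest on 40% HFD, 845, was without WT 40% HFD ligature replicate 3; others under 1645 by more than 1.5 times were 864 and 952 without CCL19-KI 40% HFD replicate 2 without and with ligature, 955 each without CCL19-KI ND ligature replicate 2 and WT 40% HFD no ligature replicate 3, and 1069 without WT ND no ligature replicate 2. In the same order weights gave 4797, 7846, 355, 3795 and 2258, and DESeq2 2650 on 40% HFD, then 490, 445 and 809 for the last 3. Quantile normalization gave 41 for genotype and 98 for ligature, plain CPM 2686 on 40% HFD and 106 for ligature, edgeR 95 for ligature, a mean of at least 5 CPM 81 and 49 for 60% against 40% HFD and genotype, and the compared groups alone 274 for 60% against 40% HFD. The adipocyte covariate gave 439, 45 and 10 for the last 3 comparisons, the epididymal 735 on 40% HFD, 219 for 60% against 40% HFD and 152 for ligature, the hepatocyte 544, 2143 and 412 for the diets against ND and ligature, and the endothelial 505, 1794 and 321 for the diets against ND and genotype. Ligatured mice gave 2641, 5923 and 44 for the diets, mice without ligature 128, 2 and 3, and 2 for genotype. Without the libraries against their labels there were 267 for 60% against 40% HFD and 1292 for genotype, and without the epididymal libraries 1086, 340, 608 and 188 for 40% HFD, 60% against 40% HFD, genotype and ligature. The study's rule gave 1764 on 60% HFD, 406 for 60% against 40% HFD and 228 for ligature. Of genes called, 957 of 1645 on 40% HFD and 1816 of 3315 on 60% HFD were higher; quantile normalization gave 772 higher and 1138 lower, and 1271 and 2630, and plain CPM, which shifted the median of all genes on 40% HFD by -0.11, gave 730 and 1956, and 1320 and 2046. *Mest*, *Sfrp5* and *Npr3* were higher on both diets under each scaling.

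Replicate numbers did not pair mice: libraries with 1 number had a mean r of -0.0083 after group means were removed, against 0.0044 for other pairs, and 10 of 36 were most like a library of their own number. With replicate number as a block, *Mest* was 1.60 (adjusted p = 0.0103) on 40% HFD and 2.21 (adjusted p = 3.49e-04) on 60% HFD, within the ranges of 2.28e-05 to 0.991 and 1.24e-07 to 0.969 over the alternatives, and 3 and 4 members were called.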
